A study of Mus musculus with 3 samples.

Results

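Voltage-gated ion channel genes and their close relatives were followed across the cell types of the early postnatal mouse cerebellum. The 82 genes are those in the count tables whose symbols belong to the Kcn potassium channel families, the Scn sodium channel family, or the alpha (Cacna), beta (Cacnb) and gamma (Cacng) calcium channel families, out of 16181 genes measured. The choice by symbol used no measured value. It also takes in the inward rectifier (Kcnj), 2-pore-domain (Kcnk) and calcium- or sodium-activated potassium channels, most of which are not gated by voltage, and the TARPs, gamma subunits that serve glutamate receptors.

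The cerebella of 3 mice killed at P7 were profiled by Drop-seq, 1 library per mouse, each from 1 side of the cerebellum. Every mouse was Math1-Cre/Eed fl/fl (Eed cKO), in which Cre expressed from regulatory sequence of Math1 (Atoh1) in the Atoh1 lineage removes Eed, a core component of Polycomb repressive complex 2 (PRC2), from cerebellar granule neuron progenitors (CGNPs). No treatment was given, and wild-type cells were not analysed here, so each comparison is between cell types within mutant mice and no value measures an effect of Eed deletion. The question the channel genes can address here is in which cell types, and in what order along the passage from CGNP to granule neuron, each one is expressed.

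Pore-forming subunits of sodium, calcium and potassium channels open in response to membrane voltage and generate the action potentials, calcium entry and repolarization of neurons and muscle. Auxiliary subunits (the alpha2delta, Cavbeta, Navbeta, Kvbeta, KChIP and Kcne proteins) set how many channels reach the membrane and how fast they open and close. CGNPs divide in the external granule layer, leave the cell cycle and become granule neurons, and channel genes are part of what they acquire, while inward rectifiers of glia and of vessel-associated cells buffer potassium and set the resting potential.

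The 2373 cells kept (918, 547 and 908 in mice 1, 2 and 3) held 1003741, 540816 and 1536645 unique molecular identifiers (UMIs, each standing for 1 captured RNA molecule), with median cells of 919.5, 857 and 1408 UMIs. No barcode was shared between libraries. Cells were grouped without the channel genes. The groups were 661 proliferating CGNP-like, 529 differentiating CGNP/CGN-like, 232 interneuron progenitor-like, 297 interneuron-like, 110 astrocyte-like, 119 oligodendrocyte-like, 81 myoid-like, 52 endothelial-like, 49 myeloid-like, 48 vascular fibroblast-like and 28 pericyte-like cells. A further 167 cells, 120 of them from mouse 3, formed a cluster that met no name and is called the unnamed neuronal-gene cluster here, since Syt4, Snhg11, Pcp4 and Calb1 were among its leading genes. It had 7 differentiating CGNP/CGN markers and 3 Purkinje markers. It was left unnamed because its 10 leading genes held more Purkinje than differentiating CGNP/CGN markers. The deleted gene Eed had 36 UMIs in CGNP/CGN-like cells (30, 14.1 and 23.6 CPM, UMIs per 1000000, in mice 1, 2 and 3) and 17 in interneuron-like cells (31.9, 161 and 44.0 CPM). The sources used here do not say which exons the deletion removes, and reads from the 3′ end of transcripts outside those exons check nothing.

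Channel transcripts were rare. The 82 genes together had 4570 UMIs, 0.148% of all UMIs, from 1 to 621 per gene with a median of 26. Values are given below for single genes mainly among the 33 with at least 30 UMIs. A further 30 had 10 to 29 and 19 had fewer than 10. Levels are CPM of the UMIs summed per mouse and cell group, with the SD over 3 mice. Tests compared these sums with edgeR's quasi-likelihood test, p-values were adjusted by Benjamini and Hochberg's method across every gene in the fit, and an adjusted p under 0.05 was past the threshold. Only 18 of the 82 genes had enough UMIs to be tested in any comparison, so the counts of genes past the threshold do not speak for the other 64.

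Summed over all 82 genes, channel transcripts were 766, 721 and 844 CPM in proliferating CGNP-like cells of mice 1, 2 and 3, and 2350, 1980 and 2310 CPM in differentiating CGNP/CGN-like cells. The stages did not overlap. Interneuron progenitor-like cells held 710, 764 and 644 CPM and interneuron-like cells 1500, 1180 and 1750 CPM, again without overlap. The unnamed neuronal-gene cluster had 3640 ± 290 CPM (SD, n = 3), which was above every other group in each mouse. Among non-neuronal groups, astrocyte-like (1920 ± 155 CPM), pericyte-like (1810 ± 381) and oligodendrocyte-like (1540 ± 473) cells were higher than myoid-like (958 ± 205), myeloid-like (670 ± 148), vascular fibroblast-like (354 ± 54.0) and endothelial-like (213 ± 156) cells on average. Oligodendrocyte-like and myoid-like cells overlapped, since mouse 2 had 1020 CPM in the first and mouse 1 had 1180 CPM in the second. The sums rest on different genes in each group, as the plot of levels by cell group shows.

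**Figure D1:**
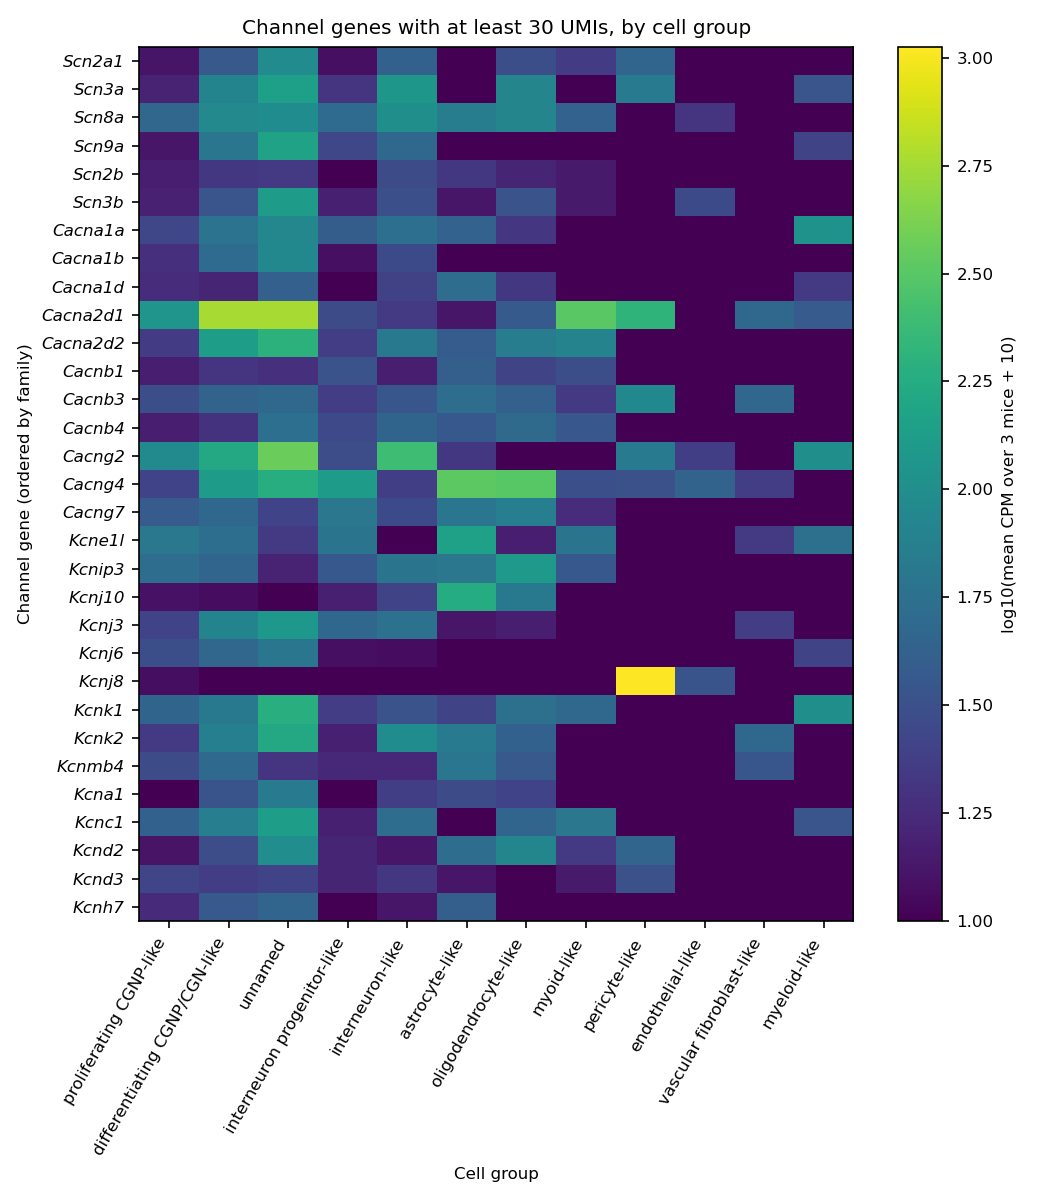
Levels of 31 of the 33 channel genes with at least 30 UMIs (vertical axis, by family) in the 12 cell groups (horizontal axis), as color on a log10 scale of mean CPM plus 10 over 3 mice. Differentiating CGNP/CGN-like cells and the unnamed cluster share many of the brighter tiles, while Kcnj8 stands out in pericyte-like cells, at 1050 CPM, and Kcnj10 in astrocyte-like cells, at 170 CPM.

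The promoters of 3 genes, each at its highest in a different lineage, are shown for the contrast in their base composition. Sequences are RefSeq's, build GRCm38.p6, the 250 bases before the transcription start on the gene's strand, 5′ to 3′, with CpG dinucleotides in capitals. Cacna2d1 (chr5:15934441-15934690, plus strand), the leading granule-lineage gene, has 36 CpGs and 82.4% G+C. Kcnj10 (chr1:172340960-172341209, plus strand), an astrocyte channel, has 17 CpGs and 62.0% G+C. Kcnj8 (chr6:142571615-142571864, minus strand), a pericyte channel, has 6 CpGs and 49.2% G+C. None of these windows overlaps an annotated exon. The 3 do not stand for their lineages: Kcnj3, higher in differentiating granule cells, has 7 CpGs, and the starts of Kcnj16, high in astrocyte-like cells, have 1 to 7.
Cacna2d1: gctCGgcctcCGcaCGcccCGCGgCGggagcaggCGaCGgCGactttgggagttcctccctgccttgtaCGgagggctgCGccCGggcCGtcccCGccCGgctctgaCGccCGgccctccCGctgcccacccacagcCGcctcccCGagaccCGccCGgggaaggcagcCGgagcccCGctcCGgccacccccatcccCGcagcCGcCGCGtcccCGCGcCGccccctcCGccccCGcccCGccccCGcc
Kcnj10: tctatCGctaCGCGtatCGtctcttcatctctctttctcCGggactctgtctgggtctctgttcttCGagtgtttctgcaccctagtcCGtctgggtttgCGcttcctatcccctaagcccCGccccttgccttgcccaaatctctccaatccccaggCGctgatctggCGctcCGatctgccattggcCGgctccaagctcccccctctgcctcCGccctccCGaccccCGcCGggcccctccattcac
Kcnj8: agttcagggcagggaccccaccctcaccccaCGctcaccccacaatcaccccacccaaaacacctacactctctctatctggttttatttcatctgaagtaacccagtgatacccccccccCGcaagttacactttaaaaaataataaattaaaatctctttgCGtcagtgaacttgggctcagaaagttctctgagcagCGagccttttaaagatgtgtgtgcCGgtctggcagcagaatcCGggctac
RefSeq gave promoters for 60 of the 82 genes, 90 in all because of alternative starts. Their median number of CpGs in 250 bases was 8, against 6 over all 32851 mouse promoters in the table, and 22.2% of them held 3 or fewer CpGs, against 37.8% of all. The motif CAGCTG, an E-box that reads the same on both strands, occurs in 24.4% of the channel promoters and in 13.0% of all. The Atoh1-type E-box CAGATG, searched on both strands and so also as CATCTG, occurs in 15.6% and in 14.4%. Of the promoters shown, that of Kcnj8 holds 1 such match and those of Cacna2d1 and Kcnj10 hold neither motif. These are matches of letters, and alternative starts of 1 gene share sequence.

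In the granule lineage, channel gene expression rose with differentiation and no channel gene fell past the threshold. Of the 12 channel genes tested, 9 were higher in differentiating CGNP/CGN-like than in proliferating CGNP-like cells and 0 were lower, where 14.9% of the 4996 genes tested were higher and 13.6% lower. Over the genes that, like the channel genes, took no part in defining clusters, these shares were 8.57% and 12.8%. The count lower was also 0 at an unadjusted p under 0.05 by edgeR and 0 by DESeq2. The 9 included the alpha2delta subunits Cacna2d1 and Cacna2d2, the TARPs Cacng4 and Cacng2, the sodium channels Scn3a and Scn8a, and the potassium channels Kcnk2 and Kcnj3. Those short of the threshold, Kcnk1, Kcnip3 and Kcne1l, had log2 fold changes of 0.62 ± 0.40 (SE), -0.24 ± 0.44 and -0.26 ± 0.37, with adjusted p of 0.27, 0.73 and 0.65 by edgeR. At resolution 0.4 Kcnk1 was past the threshold, at 1.22 (adjusted p 0.017 by edgeR). The differentiating group then had leading genes of the unnamed neuronal-gene cluster, which held 37 of the 130 Kcnk1 UMIs. The median log2 fold change was 1.66 over the 12 channel genes tested and 0.00 over all genes tested. A gene near the filter on low counts can pass it through the stage where it is high. With no filter, 14 of 76 channel genes were higher and 0 lower, against 5.25% and 6.23% of 15407 genes.

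The alpha2delta subunits carry calcium channels to the surface and to release sites. Of the 3 measured, Cacna2d1 and Cacna2d2 rose, and Cacna2d3 had 0 UMIs in differentiating and 3 in proliferating cells. Cacna2d1 (chromosome 5, 15934691 to 16374511, plus strand, GRCm38), whose promoter is printed above, was at 683, 538 and 489 CPM in differentiating cells of mice 1, 2 and 3 and at 101, 92.3 and 115 CPM in proliferating cells. Every differentiating value lay above every proliferating value. The log2 fold change was 2.47 ± 0.23 (SE), with an adjusted p of 1.7e-07 by edgeR, and it stayed past the threshold under all 12 alternative analyses. Cacna2d2, its relative with roles in cerebellar Purkinje cells, was at 99.1, 127 and 146 CPM against 13.3, 13.2 and 11.8 CPM. The groups were again far apart, with a log2 fold change of 3.26 ± 0.39 and an adjusted p of 4.1e-06 by edgeR.

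Of the TARPs, gamma-family proteins that bring AMPA-type glutamate receptors to synapses, Cacng4 and Cacng2 rose by unequal amounts, while Cacng7 (log2 fold change 0.37, adjusted p 0.72 by edgeR with no filter) was short of the threshold and Cacng5 and Cacng8 were too sparse. Cacng4 was at 110, 103 and 154 CPM in differentiating cells and at 18.7, 4.39 and 23.6 CPM in proliferating cells. All 3 mice showed the increase without overlap (log2 fold change 2.87 ± 0.42, adjusted p 2.8e-05 by edgeR). Cacng2, which encodes stargazin and is needed for AMPA receptor currents of granule neurons, was at 162, 111 and 197 CPM against 74.7, 87.9 and 79.7 CPM. Its progenitor level was already substantial, and the change was smaller, at 1.03 ± 0.27 (adjusted p 0.0071 by edgeR). The call for Cacng2 did not hold without mouse 1 (adjusted p 0.092 by edgeR), without mouse 3 (0.11) or with at least 1000 UMIs per cell (0.28). Both genes overlap a gene on the opposite strand (Gm11650 for Cacng4, A730060N03Rik for Cacng2), and the sources used here do not say whether strand was used in counting.

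Among sodium channel pores, Scn3a, known as a channel of embryonic and newborn neurons, was at 83.4, 71.2 and 63.1 CPM in differentiating cells and at 0, 8.79 and 8.86 CPM in proliferating cells. The stages were separated in every mouse (log2 fold change 3.65 ± 0.56, adjusted p 5.9e-05 by edgeR). Scn8a, a channel of the axon initial segment, was at 93.9, 63.3 and 82.8 CPM against 42.7, 26.4 and 41.3 CPM. The groups did not overlap, but the change of 1.11 ± 0.36 (adjusted p 0.024 by edgeR) did not hold without mouse 1, 2 or 3 (adjusted p 0.13, 0.082 and 0.081), without the filter on low counts (0.06) or by DESeq2 (0.099). Scn2a1, the symbol the files use for Scn2a, and Scn9a were too sparse for the test. Scn9a had 28 UMIs in differentiating and 3 in proliferating cells, a ratio of 15.4 per UMI counted (95% counting interval 4.74 to 78.9), and Scn2a1 had 15 and 3, a ratio of 8.23 (2.33 to 44.3). With no filter both were past the threshold, with adjusted p of 1e-05 and 0.016 by edgeR. Intervals and limits from counts cover counting error only, throughout.

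Among potassium channels that set the resting potential, Kcnk2 and Kcnj3 rose, while their relatives Kcnk1 (above) and Kcnj6 (log2 fold change 0.63, adjusted p 0.58 by edgeR with no filter) were short of the threshold. Kcnk2, a mechanosensitive leak channel of the 2-pore-domain family, was at 73.0, 47.5 and 74.9 CPM against 16.0, 8.79 and 11.8 CPM, without overlap (log2 fold change 2.38 ± 0.44, adjusted p 0.00036 by edgeR). Kcnj3, a G protein-gated inward rectifier subunit, was at 52.1, 94.9 and 70.9 CPM against 5.34, 17.6 and 23.6 CPM. The stages were apart in all mice (2.22 ± 0.47, adjusted p 0.0014 by edgeR), and Gm26794 overlaps Kcnj3 on the opposite strand.

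Further genes with few UMIs went the same way. Kcna1, a low-threshold delayed rectifier subunit, had 13 UMIs in differentiating and 0 in proliferating cells, at least 7.13-fold higher against a limit of 3 UMIs over the group. Kcnd2, which carries A-type current, had 13 and 3 UMIs (ratio 7.13, interval 1.96 to 39.0). Kcnh8, named after its values were seen, had 10 and 0 UMIs, at least 5.48-fold. Cacna1a and Cacna1b, the pores of the P/Q-type and N-type calcium channels of nerve terminals, had log2 fold changes of 1.56 and 1.94 in the fit with no filter, with adjusted p of 0.031 and 0.023 by edgeR.

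To order the channel genes along the lineage, the 5 CGNP/CGN-like clusters were ranked by their markers. Differentiating markers made up 28.8% of the marker UMIs in the first cluster (133 cells, with genes of G2 and mitosis), 32.3% in the second (209 cells, with genes of S phase), 52.5% in the third (319 cells), 87.0% in the fourth (171 cells) and 97.6% in the last (358 cells). Each gene was placed by its mean position over these stages, weighted by CPM, on a scale from 0 at the first to 1 at the last, where equal CPM at every stage gives 0.5. The order is a description with no test, over the 21 genes with at least 30 UMIs in these cells. The first and second clusters were close in marker share and differed in cell cycle genes, so their order was not shown to be one of development. The earliest places depend on it: mean Kcne1l was at 71.6 and 24.4 CPM in these clusters, and mean Kcnip3 at 18.4 and 57.8 CPM.

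Of the 21 genes, 20 lay at or past the middle and 1 before it. Kcne1l, which encodes a small regulatory subunit, was earliest, at 0.457 ± 0.0579 (SD, n = 3). It was followed by Kcnip3 (a calcium-binding KChIP protein, 0.505 ± 0.0951), Kcnk1 (a 2-pore-domain leak channel, 0.518 ± 0.0698), Cacng2 (0.561 ± 0.125), Cacnb3 (a Cavbeta subunit, 0.583 ± 0.208) and Kcnj6 (an inward rectifier partner of Kcnj3, 0.596 ± 0.108). These 6 overlapped in their spread and cannot be ranked against each other. The last 6 were Cacna1b (0.782 ± 0.149), Kcnk2 (0.801 ± 0.0303), Cacng4 (0.833 ± 0.0719), Scn3a (0.843 ± 0.127), Scn9a (0.874 ± 0.0691) and Cacna2d2 (0.894 ± 0.00885). Cacna2d1 lay between, at 0.736 ± 0.0221, apart from Cacna2d2 by far more than the spread of either. The order of the last 6 also varied between mice. In mouse 1 Scn3a (0.948) and Scn9a (0.939) lay past Cacna2d2 (0.901), and in mouse 2 Cacna1b (0.954) and Cacng4 (0.916) lay past it (0.896). With clusters at resolution 1.2, which gave 6 stages, 21 of 23 genes lay at or past the middle.

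**Figure D2:**
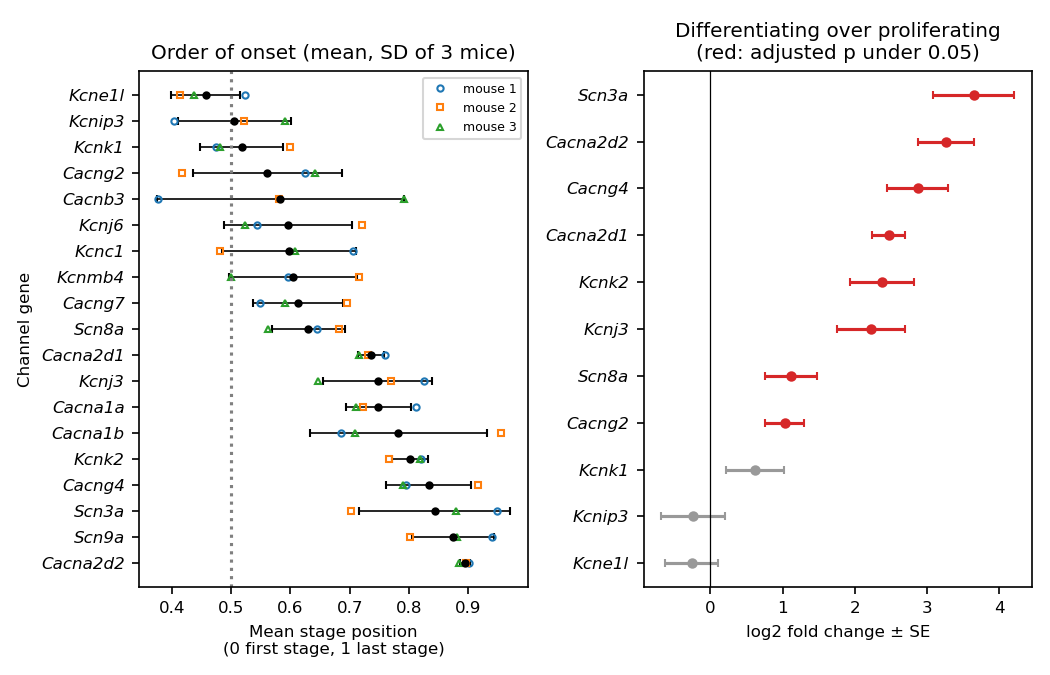
Left, mean stage position (0, first; 1, last; 0.5, equal at every stage) of 19 of the 21 channel genes with at least 30 UMIs in CGNP/CGN-like cells, with SD over mice and 1 point per mouse. Right, log2 fold change ± SE of differentiating over proliferating cells for 11 of the 12 tested, red where the adjusted p was under 0.05. By mean position Kcne1l lies first, at 0.457, and Cacna2d2 last, at 0.894, though the order varied between mice.

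The alpha2delta pair had different time courses. Mean Cacna2d1 levels were 137, 102 and 85.6 CPM over the first 3 stages, then 453 ± 59.4 CPM in the fourth (520, 410 and 428 in mice 1, 2 and 3) and 631 ± 130 CPM in the last (771, 606 and 515). Most of its increase lay at the step into the fourth stage. Cacna2d2 was at 2.83, 10.1, 21.6 and 11.9 CPM over the first 4 stages and at 179 ± 25.7 CPM in the last (153, 182 and 204). Its increase lay at the last step, in all 3 mice.

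Other late genes divided in the same manner. Kcnj3 was at 77.7 ± 51.1 CPM in the fourth stage and 69.4 ± 11.9 in the last, after 11.3, 15.3 and 14.4 CPM, so it rose with Cacna2d1, though with a wide spread over mice. Cacng4 went from 38.0 ± 7.93 CPM in the fourth stage to 163 ± 36.5 in the last, Kcnk2 from 21.2 to 87.1 ± 23.3 CPM and Scn9a from 4.32 to 78.2 ± 31.9 CPM, each with its main increase at the last step. Scn3a was at 32.7 ± 34.2 CPM in the fourth stage and at 91.9 ± 19.9 in the last, so the spread over mice leaves the step of its increase unsettled. Kcnk1 had no such course, with means of 72.8, 13.7, 26.6, 19.2 and 73.5 CPM.

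**Figure D3:**
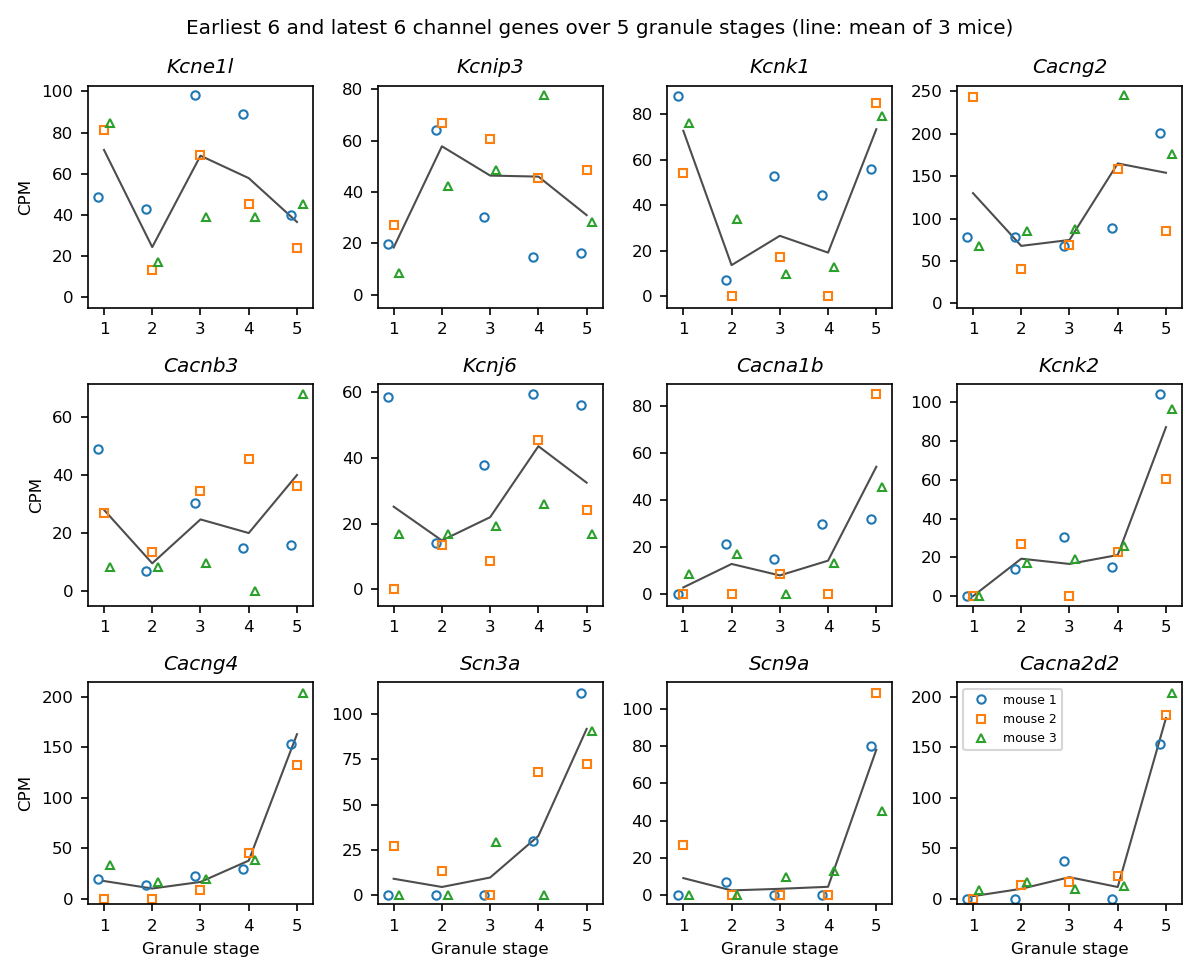
CPM (vertical axes) of the 6 earliest and 6 latest channel genes over the 5 CGNP/CGN-like stages (horizontal axes), with 1 point per mouse and a line through the means. Cacna2d2 stays at or under 21.6 CPM on average until the last stage, where it reaches 179 CPM.

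In the GABAergic lineage, Cacng2 was the channel gene that rose past the threshold from progenitor to interneuron. It was at 208, 215 and 298 CPM in interneuron-like cells of mice 1, 2 and 3 and at 18.5, 0 and 42.5 CPM in interneuron progenitor-like cells, without overlap. The log2 fold change was 3.04 ± 0.47 (SE, adjusted p 5.9e-05 by edgeR), past the threshold in all 11 alternatives that tested it. It was 1 of 1 channel gene tested, where 8.60% of 2034 genes tested were higher and 9.78% lower (2.97% and 4.81% outside the genes that defined clusters), since interneuron progenitor-like cells of mouse 2 numbered only 25 and few genes had enough UMIs. With no filter, 4 of 63 channel genes were higher (1.29% of 13973 genes) and 2 lower (2.88%). The further genes higher were Cacng3 (20 UMIs against 0, at least 6.47-fold), Kcnk2 (26 against 2, ratio 12.6, interval 3.16 to 110) and Scn3a (log2 fold change 2.78, adjusted p 0.0068 by edgeR). The genes lower were Cacng4 (-3.46, adjusted p 3e-05 by edgeR) and Kcne1l (0 against 13 UMIs, at least 4.47-fold lower). Without mouse 2, 4 genes were higher, including Scn8a, and Cacng4 was lower.

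The TARP Cacng4 went in opposite directions in the lineages. In interneuron progenitor-like cells it had 16, 1 and 28 UMIs in mice 1, 2 and 3 (148, 45.0 and 170 CPM), and in interneuron-like cells 0, 26.9 and 14.7 CPM, from 4 UMIs. Each mouse had less in interneuron-like cells, against the increase of all 3 mice in the granule lineage. In mouse 2 this was 1 UMI in each interneuron-lineage group, so its decrease rests on the group totals alone. The difference between the 2 changes was 6.24 ± 0.76 on the log2 scale, with an adjusted p of 2.9e-06 by edgeR, and it was past the threshold in 12 of 12 alternatives. It was the only 1 of 12 channel genes tested for which the difference passed, where 1.45% of 4960 genes did, and 0.346% of those outside the genes that defined clusters. With the mouse as a block, 2 genes had the more positive change in the granule lineage, Cacng4 and Kcne1l (adjusted p 0.045 by edgeR), and 1 had the more positive change in the interneuron lineage, Cacng2 (-2.07 ± 0.57, adjusted p 0.063 by edgeR, and 0.0074 with the block).

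Interneuron-like and differentiating CGNP/CGN-like cells, both neuronal, were then compared directly. Cacna2d1 was at 0, 26.9 and 9.78 CPM in interneuron-like cells, against the 683, 538 and 489 CPM of differentiating CGNP/CGN-like cells. The groups were far apart, by 57.3-fold per UMI counted (interval 19.4 to 279) and a log2 fold change of -5.76 ± 0.47 (adjusted p 9.3e-10 by edgeR). At a median depth of 896 and 882 UMIs, 39.6% of differentiating CGNP/CGN-like cells and 0.904% of interneuron-like cells had a Cacna2d1 UMI, and 23.1% and 0.195% did after thinning every cell to 500 UMIs. Cacng4 was also lower in interneuron-like cells (-3.20 ± 0.58, adjusted p 0.00031 by edgeR). Of 8 channel genes tested, 0 were higher and 2 lower, where 2.48% and 3.99% of 3708 genes were (0.576% and 1.15% outside the genes that defined clusters). At an unadjusted p under 0.05 by edgeR, 1 was higher (Cacng2), and by DESeq2 0 were. Without mouse 3, 1 was lower, since Cacng4 then had too few UMIs to be tested.

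Cacng2 did not differ past the threshold between these neurons, at 208, 215 and 298 against 162, 111 and 197 CPM (0.63 ± 0.30, adjusted p 0.32 by edgeR), although every interneuron value lay above every granule value. Cacna2d2 was likewise short of it (-0.93 ± 0.40, adjusted p 0.23 by edgeR), and at resolution 0.4 it was past it (-1.7, adjusted p 0.004 by edgeR). At that resolution the differentiating group had leading genes of the unnamed neuronal-gene cluster, which held 64 of the 200 Cacna2d2 UMIs. Cacng3, a TARP of forebrain and other neurons, had 22 UMIs in all, 20 of them in interneuron-like cells (90.9%, exact 95% interval 70.8 to 98.9), where it was at 95.8, 0 and 68.5 CPM. Against 1 UMI in differentiating CGNP/CGN-like cells the ratio was 37.6 (interval 6.01 to 1560), and mouse 2 had none in either.

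**Figure D4:**
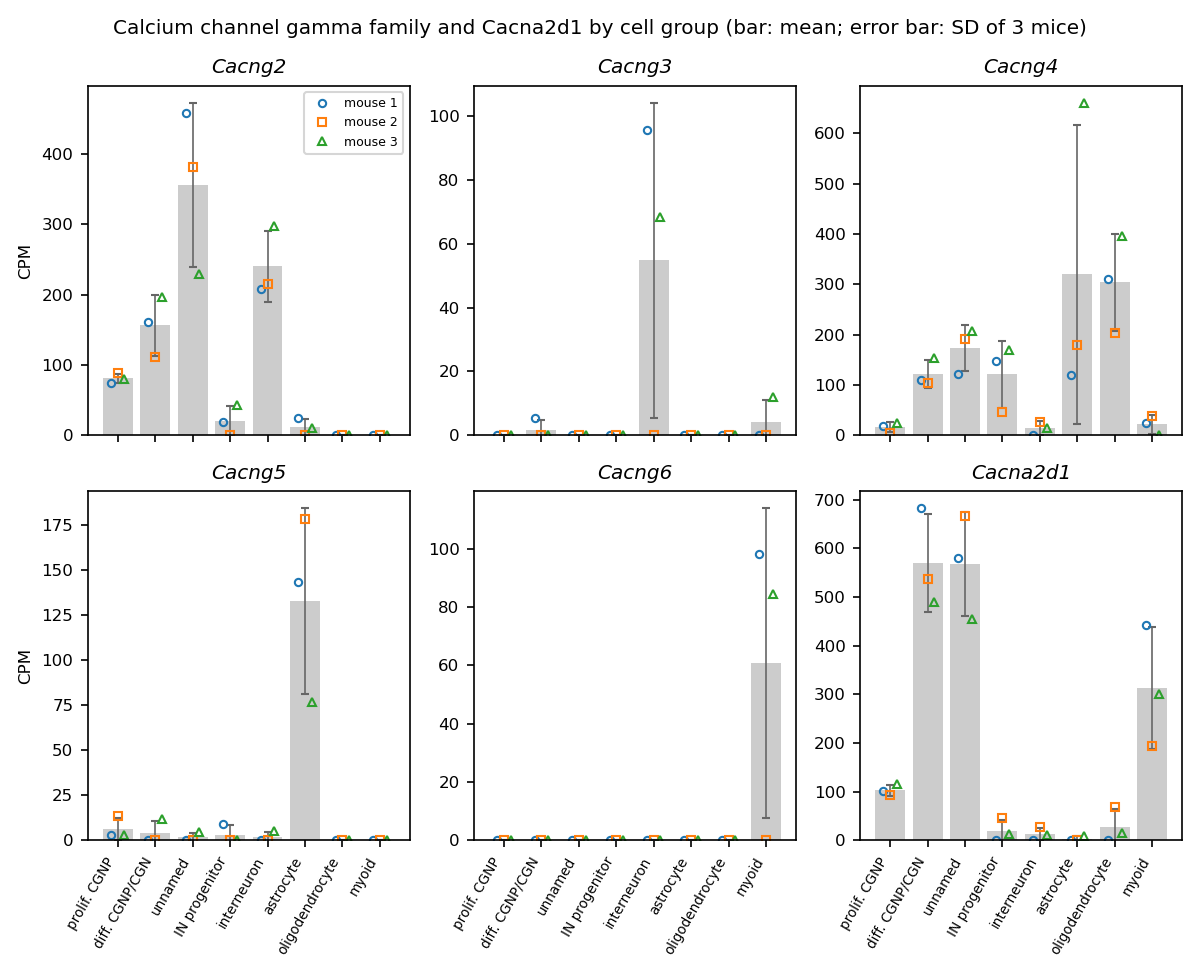
CPM (vertical axes) of Cacng2, Cacng3, Cacng4, Cacng5, Cacng6 and Cacna2d1 in 8 cell groups (horizontal axes), with bars for the mean, SD over 3 mice and 1 point per mouse. Cacng6 had UMIs only in myoid-like cells, Cacng3 had 20 of 22 in interneuron-like cells, and Cacna2d1 was at 570 CPM in differentiating CGNP/CGN-like cells.

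The unnamed neuronal-gene cluster was high in sodium channel and calcium channel pores, though 120 of its 167 cells came from mouse 3 and 9 from mouse 2, at a median of 1467 UMIs. It held 8.90% of all UMIs and 39 of the 76 UMIs of Scn2a1 (51.3%), of which 4, 0 and 35 came from mice 1, 2 and 3. It also held 33 of 74 UMIs of Scn9a, at 96.7, 191 and 121 CPM, so this gene was present in every mouse. Cacna1e, the pore of R-type calcium channels, had 15 of its 29 UMIs there, Scn3b, a Navbeta subunit, 22 of 53, and Kcnip1, a KChIP protein, 11 of 17. Cacna2d1 was at 580, 667 and 454 CPM, within the range of the last granule stages, and Cacng2 at 357 ± 117 CPM. No test was made of this cluster, and which cell type it is was not determined.

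In astrocyte-like cells 5 of 14 channel genes tested were higher than in all other cells and 3 lower, where 8.45% and 8.52% of 6068 genes were (5.78% and 4.60% outside the genes that defined clusters). The median log2 fold change was 0.01 over the channel genes tested and -0.21 over all. Kcnj10, Kcnj16 and Cacng5 had only 15, 12 and 11 UMIs in all other cells, so they passed the filter on low counts through the group where they were high. With no filter, 6 of 82 channel genes were higher and 4 lower, against 3.59% and 4.36% of 16171 genes. Kcnj10, the main inward rectifier of astrocytes, which take up potassium through it, was at 120, 178 and 211 CPM against 5.20, 9.54 and 3.49 CPM in all other cells. No values overlapped (log2 fold change 5.04 ± 0.51, adjusted p 8.8e-10 by edgeR), and 30 of its 45 UMIs were in these 110 cells. Kcnj16, which joins Kcnj10 in mixed channels, was at 167, 119 and 57.5 CPM against 4.16, 0 and 5.59 CPM. It was higher in all mice as well (4.53 ± 0.61, adjusted p 5.6e-07 by edgeR). Oligodendrocyte-like cells held 9 of the 12 other UMIs of Kcnj16 and 7 of the 15 other UMIs of Kcnj10.

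The gamma family again divided. Cacng5, a TARP-like gamma subunit, was at 144, 178 and 76.7 CPM in astrocyte-like cells and at 2.08, 5.73 and 4.19 CPM elsewhere, and 17 of its 28 UMIs were there (4.78 ± 0.56, adjusted p 2.5e-08 by edgeR). Cacng4 was at 120, 178 and 661 CPM against 72.8, 47.7 and 108 CPM, with mouse 3 far above the others (2.38 ± 0.40, adjusted p 2.2e-05 by edgeR). Kcne1l was at 120, 59.4 and 220 CPM against 48.9, 38.2 and 28.6 CPM (2.17 ± 0.45, adjusted p 0.00051 by edgeR). Without mouse 3 the calls for Cacng4 (adjusted p 0.39) and Kcne1l (0.43) were lost and Kcnj16 and Cacng5 had too few UMIs to be tested, which left Kcnj10 alone. The astrocyte-like cells of mouse 3 differed in another way, since the summed level of ependymal markers was 2340, 5590 and 28.8 CPM in mice 1, 2 and 3. Its part in these values was not tested.

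Of the 14 channel genes tested, the 3 lower in astrocyte-like cells were Cacna2d1, Cacng2 and Scn3a. Not every channel gene of neurons was lower past the threshold. Scn8a was at 62.0 ± 51.3 against 53.8 ± 11.9 CPM (log2 fold change -0.51, adjusted p 0.67 by edgeR). Cacna2d2 had a change of -0.73 (adjusted p 0.52 by edgeR), and 6 of 100 UMIs of Cacna1a were there, beside 5.29% of all UMIs. Cacna2d1 was at 0, 0 and 9.58 CPM against 227, 202 and 207 CPM, from 1 UMI, a ratio of 34.6 (interval 6.19 to 1370, log2 fold change -5.03 ± 0.76, adjusted p 3.9e-06 by edgeR). Cacng2 was at 23.9, 0 and 9.58 CPM against 97.7, 91.6 and 138 CPM (ratio 9.49, interval 2.61 to 78.7, adjusted p 0.0032 by edgeR, and 0.15 without mouse 3). Scn3a had no UMI there against 35.3, 32.4 and 57.9 CPM, at least 2.49-fold lower. Its adjusted p of 0.019 by edgeR became 0.056 without mouse 1, 0.051 without mouse 2, 0.052 by DESeq2 and 0.13 with no upper limit on UMIs. Without mouse 3 the count of lower genes was 1, Cacna2d1. Kcnn2, a calcium-activated potassium channel that the test's filter removed, had 11 of its 29 UMIs in astrocyte-like cells, at 144, 0 and 47.9 CPM, with 0 in mouse 2.

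In oligodendrocyte-like cells 2 of 13 channel genes tested were higher than in all other cells and 2 lower, where 5.68% and 5.77% of 5828 genes were (3.57% and 1.96% outside the genes that defined clusters). Cacng4 was at 310, 204 and 397 CPM against 61.1, 43.0 and 133 CPM, without overlap (1.89 ± 0.40, adjusted p 0.0024 by edgeR). Kcnip3 was at 73.0, 67.9 and 198 CPM against 26.3, 48.9 and 30.7 CPM (1.84 ± 0.50, adjusted p 0.017 by edgeR). Mouse 3 was the highest for it, and the call was lost without mouse 1 (adjusted p 0.062), which left 1 higher gene, and without mouse 3 (0.59), where Kcnj10 passed the threshold in its place. Without mouse 2, and with no filter, Kcnd2 (log2 fold change 2.22 with no filter) and Kcnj16 (2.82) were higher too, 4 genes in all. With no filter, 2 of 82 were lower, and 2.05% of 16171 genes were higher and 3.46% lower.

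Cacna2d1 and Cacng2 were the genes lower in oligodendrocyte-like cells. Cacna2d1 was at 0, 67.9 and 14.2 CPM against 230, 203 and 202 CPM (ratio 10.9, interval 3.71 to 53.0, log2 fold change -3.48 ± 0.58, adjusted p 0.00022 by edgeR). Cacng2 had 0 of 154803 UMIs, which allows up to 19.4 CPM, at least 6.03-fold below the other cells (adjusted p 0.00057 by edgeR). Both calls held in all 12 alternatives. The other cells here include the neurons in which these genes are high.

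**Figure D5:**
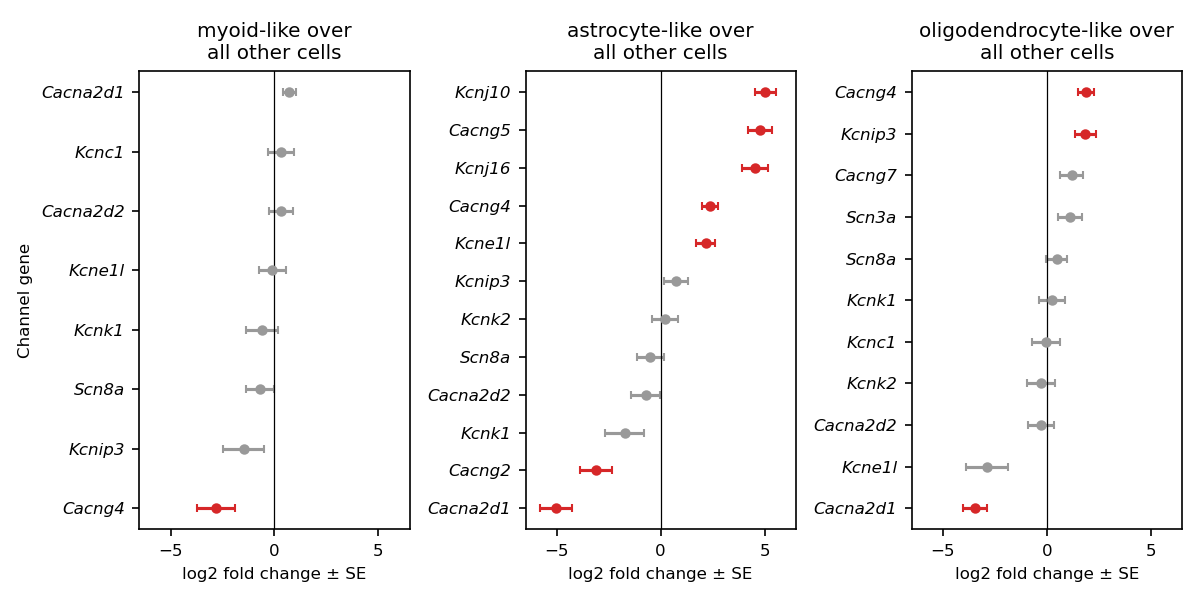
Log2 fold change ± SE (horizontal axes) of the channel genes tested and reported by name (vertical axes) in myoid-like, astrocyte-like and oligodendrocyte-like cells over all other cells, red where the adjusted p was under 0.05. Genes with no UMI in the group (Cacng2 in myoid-like and oligodendrocyte-like cells, Scn3a in astrocyte-like cells) are left out. Kcnj10, at 5.04, is the furthest to the right in astrocyte-like cells.

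The 81 myoid-like cells (28, 24 and 29 per mouse), in which summed muscle markers were at 43300 ± 15400 CPM against 191 to 348 CPM on average in other groups, had a few UMIs of the muscle isoforms. No channel gene tested was higher than in all other cells and 2 of 10 were lower, where 6.91% and 10.9% of 5904 genes were (6.04% and 4.68% outside the genes that defined clusters). At an unadjusted p under 0.05 by edgeR, 1 was higher (Cacna2d1), and by DESeq2 0 were. The median log2 fold change was -0.65 over these 10 and -0.19 over all genes. Cacng2 had 0 of 149297 UMIs, which allows 20.1 CPM, against 98.6, 93.2 and 137 CPM elsewhere, at least 5.81-fold lower (adjusted p 0.00027 by edgeR). Cacng4 was at 24.6, 38.9 and 0 CPM against 76.8, 52.4 and 153 CPM (ratio 8.25, interval 2.27 to 68.4, log2 fold change -2.81 ± 0.90, adjusted p 0.024 by edgeR). The call was lost without mouse 3 (adjusted p 0.54) and by DESeq2 (0.069). By contrast Cacna2d1, the alpha2delta subunit of the skeletal muscle calcium channel as well as of neurons, was at 443, 194 and 302 CPM against 208, 196 and 187 CPM. Its change of 0.72 ± 0.32 was short of the threshold (adjusted p 0.12 by edgeR), and with no upper limit on UMIs it was past it (0.02).

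Among the subunits of the skeletal muscle calcium channel, Cacng6, a muscle gamma subunit, had 11 UMIs, all of them in 10 myoid-like cells of 2 mice. It was at 98.4, 0 and 84.4 CPM there, at least 72.0-fold above the 1.02 CPM that a count of 0 allows in the other cells, with an adjusted p of 6.8e-06 by edgeR with no filter. With no filter 1 of 82 channel genes was thus higher and 7 lower, and 2.26% and 5.91% of 16171 genes were. Cacna1s, the pore itself, had 5 of its 11 UMIs in myoid-like cells, all of mouse 3, and 3 each in astrocyte-like and proliferating CGNP-like cells. Cacng1, the first muscle gamma subunit, had 2 of 3 UMIs, Cacnb1, the muscle Cavbeta subunit, 3 of 32, and Kcnj12, an inward rectifier of muscle and heart, 2 of 13. Kcnj2, its relative, had none of 8. Without mouse 2, Kcnk13, a 2-pore-domain channel of microglia, was the 1 gene past the threshold as higher, with 5 of 16 UMIs in myoid-like and 6 in myeloid-like cells. Vascular fibroblast markers were present in myoid-like cells at 4870 CPM in sum, with 4 of 7 at 0, and their part in these values was not tested.

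Kcnj8, the pore of the ATP-sensitive potassium channel of pericytes, was almost confined to the 28 pericyte-like cells. They held 36 of its 40 UMIs (90.0%, exact 95% interval 76.3 to 97.2) and 0.991% of all UMIs, with 9, 4 and 23 UMIs in mice 1, 2 and 3 (959, 684 and 1505 CPM). Of these cells 53.0 ± 18.4% had a Kcnj8 UMI, at a median depth of 778.5 UMIs, against 0.425% of proliferating CGNP-like cells at 1155 UMIs. The remaining 4 UMIs were in endothelial-like (2) and proliferating CGNP-like (2) cells. No test was run on this group.

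The other channel genes are given by family. Among the 5 sodium channel pores Scn1a was rare, with 11 of 27 UMIs in the unnamed neuronal-gene cluster, 9 in interneuron-like and 2 in differentiating CGNP/CGN-like cells. Of the Navbeta subunits, Scn2b had 30 UMIs. Of the 8 calcium channel pores, Cacna1a had 100 UMIs, in all neuronal groups. The L-type pores Cacna1c (27) and Cacna1d (32), and the T-type pores Cacna1g (18) and Cacna1h (12), had no group that held most of them. The Cavbeta subunits Cacnb3 (89 UMIs) and Cacnb4 (57) were spread over neuronal and glial groups. Cacnb4 had 21 of its UMIs in the unnamed cluster and 7 in oligodendrocyte-like cells, against 6 in differentiating CGNP/CGN-like cells.

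Potassium channel pores gated by voltage were the largest family by number of genes, 20 with 708 UMIs, fewer than the 846 of the 3 alpha2delta genes. Kcnc1, which encodes a fast delayed rectifier, had 145 UMIs, with 62.9 ± 23.6 CPM in differentiating and 32.6 ± 10.2 CPM in proliferating granule-lineage cells. Kcnd3 had 38 UMIs and was at 16.4 ± 9.29 CPM in proliferating and 13.1 ± 12.1 CPM in differentiating cells, ranges that overlap. The 9 calcium- or sodium-activated channel genes had 186 UMIs and none passed the filter on low counts. Of the genes fixed by role, 58 of 70 were measured, and the other 12, among them Scn4a of skeletal muscle and Kcnk9 of granule neurons, were not analysed here.

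Genes outside these families whose products hold channels in place or tune them were counted from a list of 42, of which 38 were measured. In the granule lineage 4 of 5 tested were higher in differentiating cells and 0 lower, beside the 14.9% and 13.6% of all genes given above: Ank2 (log2 fold change 2.46), Ank3 (1.26), Cntn1 (1.28) and Nrcam (1.55), which encode ankyrins and cell adhesion proteins of the axon. From interneuron progenitor to interneuron, 2 of 3 were higher, Ank3 (1.36) and Nrcam (1.94), beside 8.60% of all genes. Interneuron-like cells exceeded differentiating CGNP/CGN-like cells in Fgf13, a sodium channel-binding protein (2.54), and Dpp6, an auxiliary subunit of A-type channels (1.96), 2 of 6 tested, beside 2.48% of all genes.

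In myoid-like cells 3 of 11 of these partner genes were higher and 4 lower, beside 6.91% and 10.9% of all genes. Rrad, a GTPase that restrains calcium channels, was at 295, 77.8 and 241 CPM against 3.12, 0 and 2.06 CPM in other cells, without overlap (6.63 ± 0.60, adjusted p 5.2e-11 by edgeR). Stac3, an adaptor needed for excitation-contraction coupling in skeletal muscle, was higher as well (4.63 ± 0.53, adjusted p 1.5e-08 by edgeR). Rrad and Stac3 had only 6 and 24 UMIs in all other cells, so they passed the filter on low counts through the group where they were high. Partner genes past the threshold were not counted with no filter. In oligodendrocyte-like cells Cntn1 was at 475, 509 and 978 CPM (log2 fold change 3.60, adjusted p 2.7e-08 by edgeR) and Nfasc, which joins it at the border of the myelinated axon, at 237, 577 and 170 CPM (3.38, adjusted p 1.1e-05 by edgeR), the 2 of 9 that were higher, beside 5.68% of all genes. Ank3 was lower in myoid-like (-1.96), astrocyte-like (-2.09) and oligodendrocyte-like (-1.21) cells. In astrocyte-like cells 3 of 8 were higher and 2 lower, beside 8.45% and 8.52% of all genes. Each of the 3 higher was below the other cells in mouse 2: Clcn3 (119 against 128 CPM), Cntn1 (59.4 against 64.9) and Nrcam (119 against 174). Of 7 partner genes tested, 0 passed the threshold by edgeR for a difference between the lineages in the change with differentiation, and 2 (Dpp6 and Fgf13) had an unadjusted p under 0.05.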

How the data were processed

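The authors deposited raw, whole-number UMI counts for each gene and cell barcode of 3 Eed cKO mice. The submitters' processing notes name STAR and mm10, and other details are not given in the sources used here. Kept cells had at least 500 UMIs and 200 genes, lay within 4 SD above their mouse's median for both, and had at most 10% mitochondrial UMIs. They were clustered with Seurat 5.3.0 and sctransform 0.4.2 in R 4.3.3 (genes in at least 30 cells, 3000 variable genes without the channel and partner genes, 15 principal components, resolution 0.8). Clusters were named from fixed marker lists, with at least 3 markers needed, each in at least 10% of cells and at least 2-fold above other cells. A cluster stayed unnamed where the leading types tied. It also did so where its 10 leading genes held more markers of another type, except between the CGNP and CGN lists. Scrublet called 3, 4 and 3 cells doublets (0.327, 0.731 and 0.330%), too few for it to have worked, so none were removed and doublets may remain.

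UMIs were summed per mouse and group, which gives 3 against 3 sums, and tested with edgeR 4.0.16 (TMM, filterByExpr, quasi-likelihood, Benjamini-Hochberg). P-values thus rest on the spread over 3 mice. Tests on simulated data recovered 79% of genes changed 4-fold between granule stages (4996 genes), 50% for the difference of lineages (4960 genes) and 56 to 84% in the other comparisons. Of genes changed 2-fold they recovered 39%, 6% and 10 to 42%. False calls were 8.2% of calls for the difference of lineages, 10.9% for oligodendrocyte-like cells (5828 genes) and 0 to 3.81% in the other comparisons. Counts of mice differed by more than sampling noise (chi-square per degree of freedom 2.6, 5.52 and 4.49 over 10357 genes). Both sums of a pair come from the same mouse, and their deviations correlated at r of 0.083 to 0.313 across genes, which are not independent. Alternatives were DESeq2 1.42.0 and its size factors, no filter on low counts, a mouse block, each mouse left out, resolutions 0.4 and 1.2, at least 1000 UMIs per cell, no upper limit, doublets removed and, for myoid-like cells, CGNP/CGN-like cells as the only reference. Coordinates are GENCODE M21 (GRCm38).

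The channel genes and lists were chosen with earlier results of these data known. Named genes were those past the threshold and moved the same way in all mice (up to 10 per comparison), those fixed by role, and the first and last 6 in order of onset. Kcnh8, Kcnip3 in oligodendrocyte-like cells, Kcnc1 in the account of families, and other counts of single genes outside that rule were added after their values were seen.
Some channel genes are counted among the totals and are not reported here by name.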

Additional observations from a re-analysis of the deposited data

Results flagged for a closer look

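The change of Cacng4 with granule differentiation exceeded its change with interneuron differentiation by 6.24 ± 0.76 on the log2 scale (SE, adjusted p 2.9e-06 by edgeR), a difference between lineages that was itself tested. All 3 mice had more Cacng4 in the differentiated granule group, and all 3 less in the differentiated interneuron group, which held only 4 UMIs of the gene. In mouse 2 the decrease was between groups with 1 UMI each.

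Cells above the upper limit on UMIs and genes were left out of the comparisons as reported, and entered them in the alternative with no upper limit. They held channel transcripts. These 35 cells (16, 9 and 10 in mice 1, 2 and 3) had 583 UMIs of the channel genes, or 2640 CPM. In mouse 3 this was 476 UMIs (4130 CPM), against 57 (809 CPM) and 50 (1410 CPM) in mice 1 and 2. Cacng2 (102 UMIs), Cacna2d2 (62), Cacna2d1 (33) and Scn1a (22) were among the leading genes, and whether these are large cells or doublets was not tested.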

How the results depend on the processing

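Counts of channel genes past the threshold and summed levels stayed close to the reported value in 148 cases and moved in 31. Granule stages, 9 higher: 14 with no filter, 4 with at least 1000 UMIs, of only 6 tested. Interneuron over progenitor, 1 higher and 0 lower: no filter 4 and 2, each mouse left out 1 to 4 and 0 to 1, and at least 1000 UMIs 0 higher, of 0 tested. Difference of lineages, 1 and 0: with the mouse block 2 and 1, and 1 lower with at least 1000 UMIs or no upper limit. The block changed no other count by more than 1.5 times. Myoid-like, 0 and 2: 1 higher and 7 lower with no filter, 1 higher with no upper limit, each mouse left out 0 to 1 and 1 to 3, and 1 lower by DESeq2, with at least 1000 UMIs or against CGNP/CGN-like cells only. Astrocyte-like, 5 and 3: 1 to 6 and 1 to 3 with each mouse left out, both 1 without mouse 3. Oligodendrocyte-like, 2 higher: 4 with no filter, 1 with at least 1000 UMIs, and 1 to 4 with each mouse left out. Interneuron over differentiating CGNP/CGN-like, 0 and 2: 1 higher with no filter, 0 to 1 and 1 to 2 with each mouse left out, and lower 1 with at least 1000 UMIs and 4 at resolution 0.4. The summed level in differentiating CGNP/CGN-like cells was 2210 CPM and 2910 at resolution 0.4, where a cluster of 498 cells, with 3 proliferating and 3 differentiating markers, met no name. At that resolution the unnamed neuronal-gene cluster did not form. The differentiating group (526 cells, 248 from mouse 3) then had Syt4, Snhg11 and Pcp4 among its leading genes, so calls at 0.4 compare a different group.

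The genes named here changed sign and were all short of the threshold as reported. With each mouse left out, log2 fold changes ran from -0.24 to 0.06 for Kcnip3 between granule stages and from -0.4 to 1.0 for Scn3a between lineages. In myoid-like cells they ran from -0.18 to 0.73 for Cacna2d2, -0.04 to 0.77 for Kcnc1, -0.55 to 0.31 for Kcne1l and -2.11 to 0.48 for Kcnk1. In astrocyte-like cells they ran from -0.23 to 0.92 for Kcnip3, -0.04 to 0.89 for Kcnk2 and -1.09 to 0.29 for Scn8a. In oligodendrocyte-like cells they ran from -0.8 to 0.37 for Cacna2d2, -0.67 to 0.09 for Kcnc1, -1.13 to 0.7 for Kcnk1 and -0.15 to 0.77 for Scn8a. With no upper limit, Cacna2d2 (-0.13) and Kcnc1 (-0.12) changed sign in myoid-like cells, with no filter Kcnk2 (-0.01) in astrocyte-like cells, and with at least 1000 UMIs Kcnj3 between lineages (-0.79). At resolution 0.4 Scn3a (-0.0) and Scn8a (-0.28), and at 1.2 Kcnk2 (-0.18), changed sign between neuron types. The cause was not tested.

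Depth limits most of these genes: 64 of 82 had too few UMIs for any test, and a count of 0 in myoid-like cells still allows 20.1 CPM. With at least 1000 UMIs per cell no cluster was named pericyte-like.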

Other observations

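Some sparse channel genes had a share of their UMIs in single cell groups. Kcnk13 had 6 of 16 UMIs in the 49 myeloid-like cells. Kcnj2 had 4 of 8 in the 52 endothelial-like cells. Kcnmb2, a beta subunit of the large-conductance calcium-activated channel, had 8 of 16 in interneuron-like cells, and Kcnn2 had 10 of 29 in interneuron progenitor-like cells beside the 11 in astrocyte-like cells. These genes were named after their values were seen.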
